A study of Arabidopsis thaliana with 72 samples.

Results

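The cytokinin zeatin left a group of 53 probe sets at higher signal in 7-day-old Arabidopsis thaliana seedlings at 30 min, 1 h and 3 h, out of 22746 probe sets on the ATH1 array that are not controls. The 53 were chosen from the measured values themselves. On the log2 scale (explained below), the zeatin arrays of Col-0 seedlings had to exceed the mock arrays by 0.7 or more as the mean over the times, and by more than 0 at each time. Both zeatin arrays at 3 h had to lie above both mock arrays, the mean zeatin level at 3 h had to reach 8.5, and the auxin IAA, abscisic acid (ABA) and methyl jasmonate (MJ) had each to stay below a difference of 1 at 3 h. The zeatin differences below are therefore a description of chosen probe sets and carry no test. The annotation used here gives 21 of the 53 probe sets 1 gene each, gives 2 of them several genes, and leaves 30 unnamed, which are called by their probe-set identifiers.

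All seedlings were grown at 22 °C and fall into 36 groups of 2 arrays. Col-0, the wild-type accession, received 1 µM zeatin, 1 µM IAA, 1 µM gibberellin GA3, 10 µM ABA, 10 µM MJ, 10 µM of the ethylene precursor ACC, 10 nM brassinolide (BL) or a mock treatment, each at 30 min, 1 h and 3 h. The mutant ga1-5, which makes little gibberellin, received 1 µM GA3 or mock, and det2-1, which makes little brassinosteroid, received 10 nM BL or mock, at the same times. No mutant received zeatin. The labels put each genotype and time in a lettered set of its own, 9 in all, so genotype and set cannot be told apart, and neither can time and set. Nothing in them shows whether duplicate arrays stem from separate cultures, and the p-values below may then reflect technical spread alone. In whole seedlings, fewer cells of a type and less RNA per cell cannot be told apart.

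Cytokinins bind histidine kinase receptors at cell membranes, which pass phosphate through phosphotransfer proteins to type-B response regulators in the nucleus. Type-B regulators are transcription factors, and type-A response regulators, which dampen the same pathway, are among the genes they switch on soonest. Cells also lower active cytokinin by oxidising it or by attaching glucose to it, and move it with purine carriers.

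Values are given as scaled signal, the deposited MAS5 intensity brought to a common trimmed mean of 1147 per array, and as differences of log2(scaled signal + 55), treated minus mock. The added 55 shrinks differences of dim probe sets. Signals of different probe sets depend on their probes and are not set against each other here.

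Both type-A response regulators that the annotation names on a tested probe set, ARR15 and ARR16 (listed as RR16), were among the 53. ARR15 had scaled signals of 3180.5 and 2729 with zeatin at 30 min, against 272 and 212 in mock seedlings. At 1 h its zeatin arrays read 1743 and 3427 and its mock arrays 347 and 362, and at 3 h the zeatin arrays read 1051 and 1546 and the mock arrays 357 and 508. The zeatin arrays were above the mock arrays at every time, and the gap narrowed: the log2 difference was 3.34 at 30 min, 2.61 at 1 h and 1.47 at 3 h, or 10.2-fold, 6.11-fold and 2.76-fold.

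RR16 had scaled signals of 3219.7 and 2224 with zeatin and 704 and 399 in mock seedlings at 30 min. The zeatin arrays read 2987 and 3396 against 862 and 557 in mock at 1 h, and 1701 and 1999 against 659 and 404 in mock at 3 h. Its differences of 2.22, 2.11 and 1.73 declined less over the times than those of ARR15, and at no time did the groups overlap.

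UGT76C2, a glucosyltransferase that attaches glucose to the ring nitrogen of cytokinins, read 1598 and 2058 with zeatin against 795 and 956 in mock at 30 min. It read 2379 and 3048 with zeatin against 852 and 1313 in mock at 1 h, and 2193 and 2313 against 1242 and 946 in mock at 3 h. Its difference was near 1 log2 unit throughout, at 1.01, 1.303 and 1.02, with no overlap of the groups.

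AZG1, a purine permease that can carry cytokinins, read 986 and 781 with zeatin and 303 and 312 in mock seedlings at 30 min. At 1 h it read 624 and 896 with zeatin and 242 and 487 in mock, and at 3 h 756 and 782 with zeatin and 473 and 601 in mock. Its mock arrays were higher at 3 h than at 30 min, and the difference was 1.36, 1.00 and 0.49 at the 3 times.

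**Figure D1:**
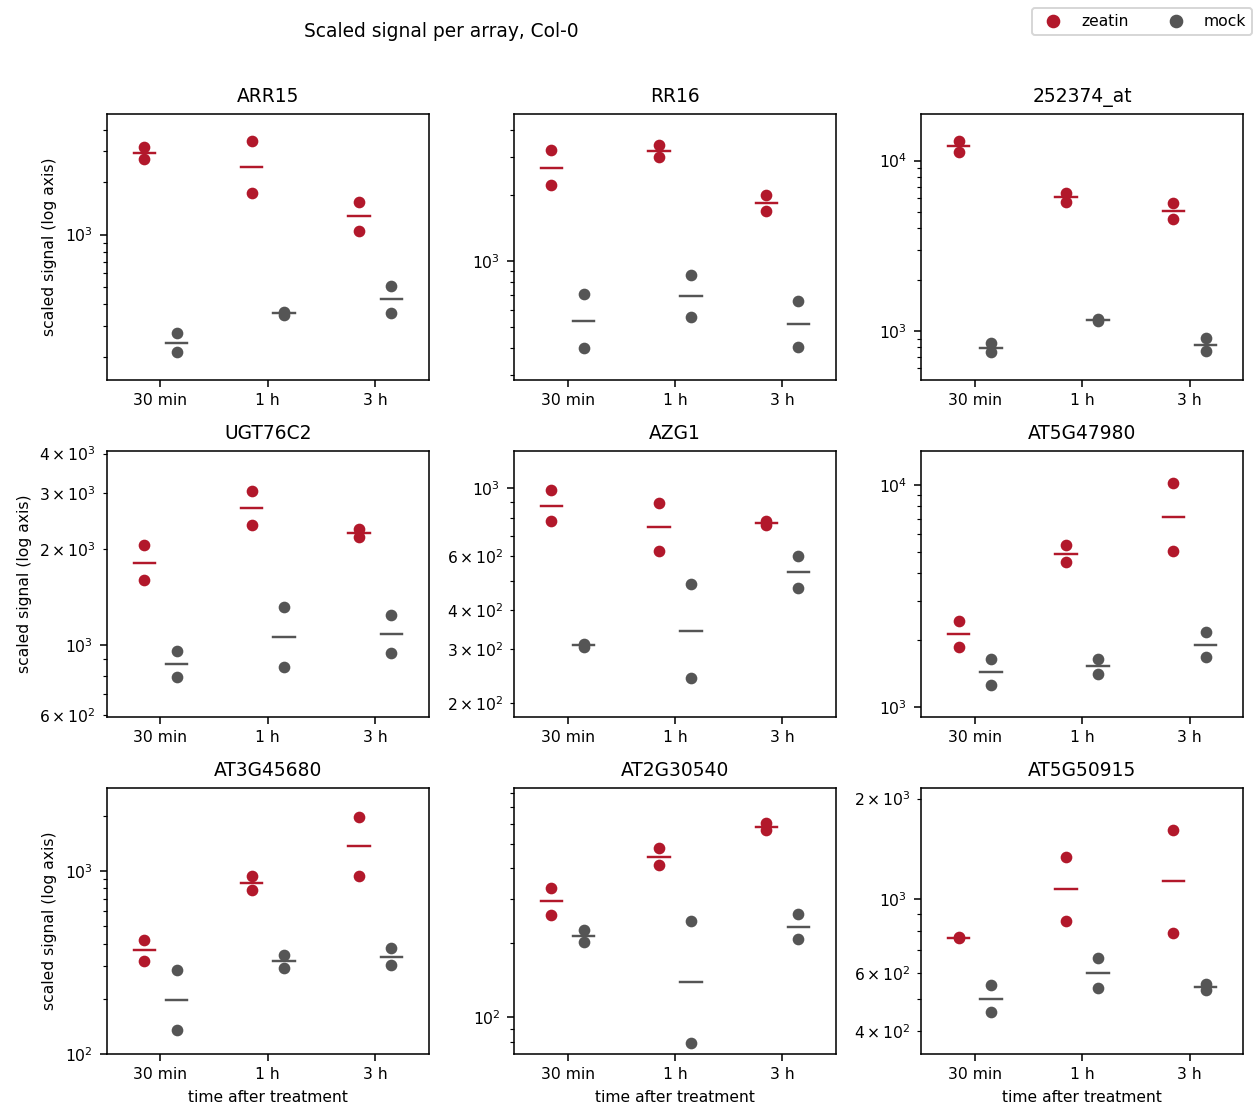
Scaled signal (log axis) of 9 members on each Col-0 array at 30 min, 1 h and 3 h, zeatin in red and mock in grey, with a bar at the geometric mean of the 2 arrays. ARR15 and 252374_at have their widest gap at 30 min, while AT5G47980, AT3G45680 and AT2G30540 sit further above mock at 1 h and 3 h than at 30 min.

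The largest differences belonged mostly to probe sets without a gene name here. 252374_at had scaled signals of 11271 and 13060.4 with zeatin against 745 and 846 in mock at 30 min. Its zeatin arrays read 5750.1 and 6484 against 1147 and 1172 in mock at 1 h, and 5666 and 4518 against 906 and 756 in mock at 3 h. The 30 min difference of 3.84 (14.4-fold) was the largest among all 53 members and times, with 2.34 and 2.53 at the later times. 259466_at followed with differences of 3.01, 2.16 and 1.69, and 266606_at with 2.57, 2.44 and 1.69. 247406_at had 2.83, 1.13 and 1.46, and 266372_at had 2.05, 1.24 and 1.47. These 5 and both response regulators were highest over mock at 30 min. Of the 10 largest mean differences, the other 3 were 264470_at (1.098, 2.23 and 2.396), 259388_at (0.77, 1.82 and 2.56) and 262704_at (1.37, 1.64 and 1.28), which were widest at 3 h, 3 h and 1 h.

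Over the 53, the difference was largest at 30 min for 13, at 1 h for 25 and at 3 h for 15. It increased from each time to the next in 13 and declined in 10, and 30 had a larger difference at 3 h than at 30 min, against 23 with a smaller one. The median difference was 0.77 at 30 min (range 0.31 to 3.84), 1.15 at 1 h (0.52 to 2.61) and 1.03 at 3 h (0.43 to 2.56), beside medians of 0.00, 0.01 and -0.02 over all 17262 probe sets tested. A difference of 1 or more was found in 20 of 53 at 30 min (0.521% of all tested), in 38 at 1 h (1.15%) and in 29 at 3 h (0.915%). Both zeatin arrays lay above both mock arrays in 50 of 53 members at 30 min (14.1% of all tested), in 53 at 1 h (19.5%) and in 53 at 3 h (16.1%), where the choice required it. The exceptions at 30 min were AT3G46880, AT1G21520 and 262915_at. By limma's F over the times, 43 of the 53 passed an adjusted p of 0.05, beside 1.35% of all tested, from which nothing is read, since these arrays chose the members.

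**Figure D2:**
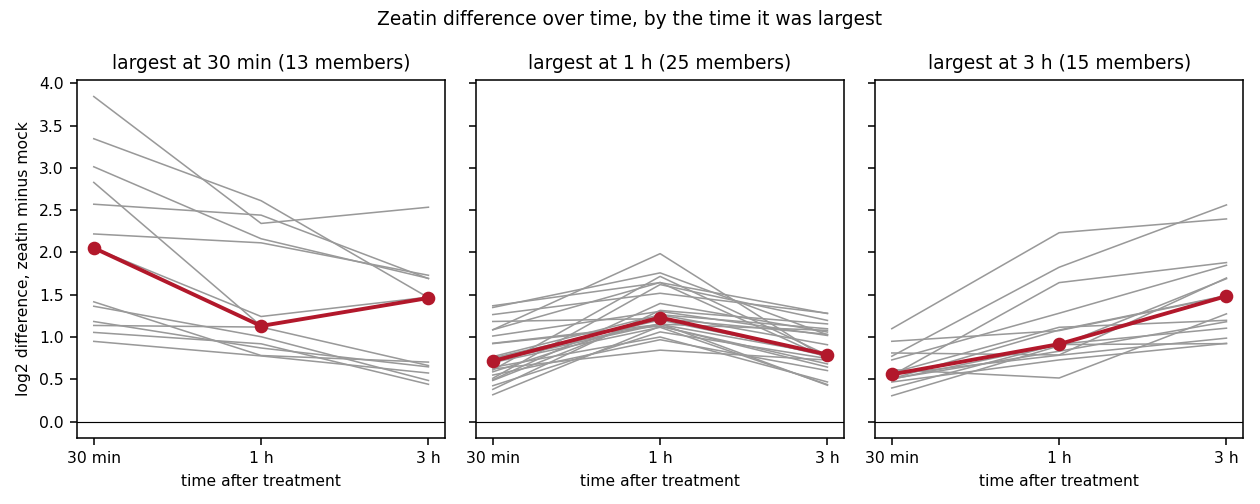
Log2 difference, zeatin minus mock in Col-0, at 30 min, 1 h and 3 h, with a grey line for each member and the red line at the median, in panels by the time of the largest difference. The 13 members with their maximum at 30 min hold all but 1 of the differences above 2.5, and the 15 with their maximum at 3 h have a median of 0.56 at 30 min and 1.48 at 3 h.

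Among the named members with the widest gap at 3 h was AT5G47980, an acyltransferase gene of the thalianol cluster, where genes for making a root triterpene lie side by side. It had scaled signals of 2440.1 and 1867 with zeatin against 1656 and 1262 in mock at 30 min, 5359 and 4475 against 1654 and 1417 in mock at 1 h, and 10205 and 5055 against 2178 and 1678 in mock at 3 h. The difference grew with time, at 0.55, 1.64 and 1.88, and the 2 zeatin arrays lay further apart at 3 h than at the earlier times. AT3G50300, also of the acyltransferase family, was widest at 1 h instead (1.09, 1.64 and 0.75).

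The nitrate and peptide transporter family gave 3 members, each of them widest at 3 h. AT3G45680 read 322 and 418 with zeatin against 287 and 135 in mock at 30 min, and 1975 and 939.7 with zeatin against 379.6 and 304 in mock at 3 h, a difference of 0.73 at 30 min, 1.28 at 1 h and 1.85 at 3 h. AT3G45710 had 0.58, 1.11 and 1.197, and AT1G72140 had 0.51, 1.08 and 1.49. The relatives AT1G72125 and AT1G68570, also tested, had mean differences of 0.24 (SE 0.19) and 0.11 (SE 0.14), and the family as a whole was not counted. AT3G45680 and AT3G45710 are 3 genes apart on chromosome 3 in the order of the RefSeq annotation (TAIR10.1). The sulfotransferase genes AT3G45070 and AT3G45080, neighbours on the same chromosome, share 1 probe set, which cannot separate them. That probe set had 1062 and 927 with zeatin against 869 and 722 in mock at 30 min, and 2631 and 3026 with zeatin against 832 and 842 in mock at 3 h (differences 0.31, 0.90 and 1.69). Of the 24 genes of members that could be placed, 10 lie on chromosome 1, 3 on chromosome 2, 7 on chromosome 3, 1 on chromosome 4 and 3 on chromosome 5. Genes that share a probe set are counted separately here, and the unnamed members are not placed. The share of all genes on each chromosome was not counted, so nothing is read from these numbers.

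The remaining named members had their maximum mostly at 1 h. NAI1, a bHLH transcription factor needed to form ER bodies, had differences of 0.75, 1.2001 and 0.79. UBC16, a ubiquitin-conjugating enzyme, had 0.74, 1.16 and 0.43, and AT1G11670, of the MATE efflux family, 0.70, 1.11 and 0.44. AT2G30540, a glutaredoxin, had 0.38, 1.31 and 1.15. Its zeatin arrays read 480.0 and 409 against 244 and 79.1 in mock at 1 h, and 566 and 604 against 207 and 260.3 in mock at 3 h, with no overlap at either time. The probe set shared by the O-methyltransferase genes AT1G77520 and AT1G77530 had 0.93, 1.15 and 0.79. AT5G50915, another bHLH transcription factor, was widest at 3 h (0.56, 0.78 and 0.99), where its zeatin arrays read 788 and 1614 against 555 and 532 in mock. AT4G03610, of the metallo-hydrolase family, had 0.61, 1.72 and 0.78, and AT1G64590, of the NAD(P)-binding family, had 0.49, 1.40 and 1.06. AT3G46880 (0.72, 1.15 and 1.08), AT1G21520 (0.62, 0.84 and 0.73) and AT2G12420 (0.55, 0.97 and 0.60) were widest at 1 h, AT1G21830 at 30 min (1.05, 0.92 and 0.44) and AT1G28100 at 3 h (0.50, 0.91 and 0.92).

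Same-numbered arrays gave a difference above 0 in both pairs for 52 members at 30 min, and for all 53 at 1 h and at 3 h. The choice of members fixed this outcome at 3 h and favoured it at the earlier times, so nothing is read from it. The replicates were not equal in level. At 3 h, zeatin replicate 1 was higher than replicate 2 in 36 of 53 members (median 0.21 on the log2 scale, -0.01 over all tested), and in 12 of the 15 that were widest at 3 h (median 0.40). Among mock arrays at 3 h, replicate 1 was the higher in 33 of 53 (median 0.20). At 1 h, zeatin replicate 2 was the higher one in all 13 members that were widest at 30 min, with a median replicate 1 minus replicate 2 of -0.36 against 0.01 over all tested. The part of these shifts in the order of the times was not tested.

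The cut-offs passed through closely spaced values. The lowest mean differences inside were 0.703 (254644_at) and 0.707 (AT2G12420), and the highest outside were 0.69967 (TINY2) and 0.695 (254606_at). Zeatin levels at 3 h just inside were 8.62 (AT2G12420) and 8.77 (259758_s_at, the probe set of the O-methyltransferases), and just outside 8.45 (254065_at) and 8.40 (AT5G10970). For the limit on other hormones, AT5G47980 (MJ, 0.97) and NAI1 (MJ, 0.97) were just inside, and AT3G15720 (1.00056) and 257460_at (1.06) just outside. The limit on IAA, ABA and MJ alone removed 22 probe sets and the level alone 31.

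Few other named genes of the pathway could be read, because most had no tested probe set under a single gene name. Receptors, phosphotransfer proteins, cytokinin response factors and cytokinin synthesis genes had none. The counts that follow come from the arrays that chose the members, and the members were taken out of the lists first, so they describe the remaining genes and support nothing about the pathway. Under zeatin, limma's F passed none of the other tested probe sets of the type-B regulators (0 of 1), cytokinin breakdown and conjugation (0 of 2), nitrate transport and reduction (0 of 2), glutaredoxins (0 of 5), class III peroxidases (0 of 3), expansins (0 of 16) and auxin conjugation and Aux/IAA genes (0 of 11). Of these 40, 7 had an unadjusted p under 0.05, beside 8.56% of all tested. UGT76C1, a close relative of UGT76C2, had a mean difference of -0.06 (SE 0.18), and AT5G47950, another acyltransferase of the thalianol cluster, 0.66 (SE 0.28). The glutaredoxin ROXY2 had 1.63 at 30 min, 2.11 at 1 h and -0.62 at 3 h, so that it was below mock at the last time. Its mean difference was 1.04 (SE 0.38), and its signal was dim, with a mean scaled signal of 140 in mock at 3 h. Of 19 cytochrome P450 probe sets, 1 passed, CYP84A4, whose mean difference of 0.76 (SE 0.17) met the zeatin cut-off. It was no member because its largest difference with IAA, ABA or MJ at 3 h was 1.71. Both shoot and root transcripts were in the samples: the green-tissue gene RCA had a mean scaled signal of 29188 in mock at 3 h, and the root gene PYK10 had 36668, with zeatin differences of -0.02 (SE 0.39) and -0.04 (SE 0.19) that were smaller than their errors.

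The other hormones were set against the same Col-0 mock arrays, which helped to choose the members, so their differences are given without a test. At 3 h the median of the 53 was -0.39 with IAA, -0.38 with ABA, -0.21 with MJ, -0.14 with ACC, 0.01 with GA3 and 0.00 with BL. The medians of all tested probe sets were 0.00, -0.16, -0.09, 0.01, 0.01 and -0.01 in the same order. A difference of -1 or less at 3 h was found in 11 of 53 members with IAA (1.6% of all tested), in 11 with ABA (5.4%) and in 3 with MJ (2.64%). These comparisons share their mock arrays with each other and with zeatin. The choice also kept IAA, ABA and MJ below 1 at 3 h, a limit that was not placed on the tested probe sets as a whole. Nothing is therefore read from the 3 h medians and counts of IAA, ABA and MJ.

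259388_at, which was widest with zeatin at 3 h, differed by -1.97 with IAA and -2.13 with ABA at 3 h. AT5G47980 had -1.32 with IAA and -1.96 with ABA, and 0.97 with MJ. The transporter gene AT3G45710 had -2.53 with ABA and its near neighbour AT3G45680 had 0.74. NAI1 was above mock with MJ at all times, by 1.49, 2.03 and 0.97. AT5G50915 had 1.65 with BL at 3 h. Of the type-A regulators, ARR15 ranged from -1.06 (ACC, 3 h) to 0.88 (BL, 30 min) over the 6 other hormones, and RR16 from -0.92 (MJ, 1 h) to 0.90 (ACC, 1 h), both below their smallest zeatin difference.

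**Figure D3:**
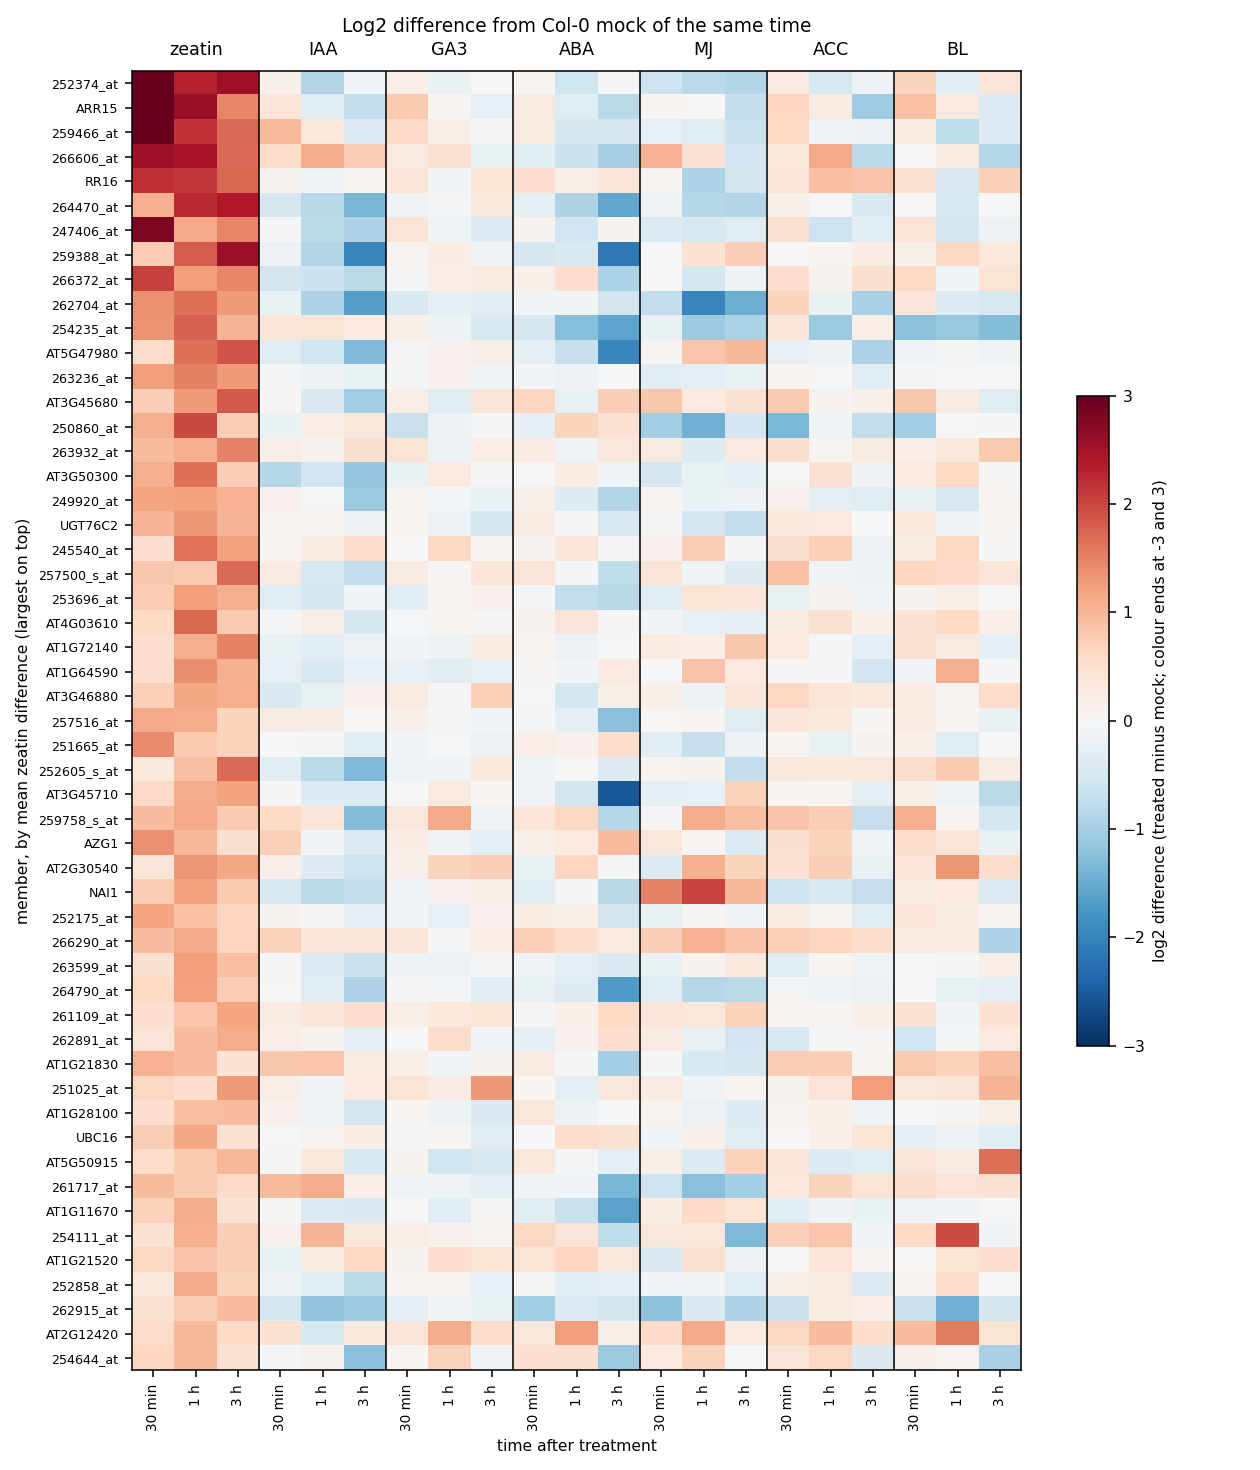
Log2 difference from Col-0 mock of the same time, for the 53 members (down, by mean zeatin difference) and 7 hormones at 3 times (across), red above mock and blue below, with colour ending at -3 and 3. By the choice of members, the zeatin columns are red throughout, and IAA, ABA and MJ at 3 h stay below 1. IAA and ABA at 3 h hold the most differences of -1 or less, 11 each, in columns that the choice used.

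Arrays that played no part in the choice allowed tests. GA3 and BL were compared with mock in the mutants, mock seedlings of the mutants with each other, and ACC, BL, IAA, ABA and MJ with GA3 in Col-0, since the Col-0 mock arrays had been used. For IAA, ABA and MJ the comparison holds 30 min and 1 h, since their 3 h arrays had been used too. The limit at 3 h kept out probe sets that these hormones raised by 1 or more, 22 of them by that limit alone. Their counts at 30 min and 1 h, and the balance of higher and lower, are therefore not free of the choice. The 5 comparisons with GA3 share its arrays, so they are not independent of each other. Each test is limma's, fitted on all 17262 tested probe sets with Benjamini-Hochberg adjustment over them, by the F over the times except for mock against mock, where the mean over the times was tested.

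**Figure D4:**
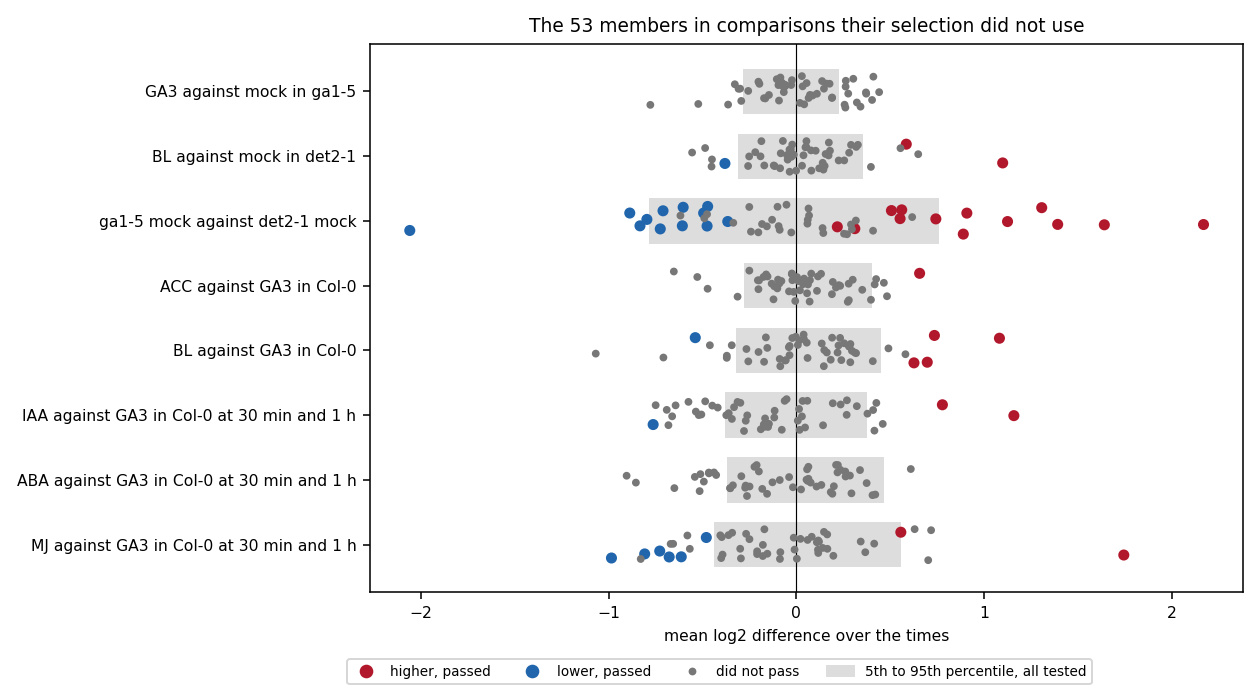
Mean log2 difference over the times for each of the 53 members in 8 comparisons whose arrays did not choose them, with members that passed limma's test in red (higher) or blue (lower) and the others in small grey, and a grey bar from the 5th to the 95th percentile of all tested probe sets. Between 9 (ACC against GA3) and 20 (GA3 in ga1-5, and IAA against GA3) of the 53 lie outside the bar, and the points farthest from 0 are RR16 (-2.06) and AT5G47980 (2.17) between the mutants and NAI1 (1.74) with MJ.

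BL in det2-1 raised 2 members and lowered 1, which is 5.66% of the 53 beside 3.14% of all tested. By direction, 2.16% of all tested rose and 0.985% fell. AT5G50915 had scaled signals of 2793 and 2059 with BL against 441 and 387 in mock at 3 h, with 432 and 429 against 315 and 182 in mock at 1 h. The BL arrays at 30 min, 469 and 534, were also above the mock arrays, 440.0 and 422, and the mean difference was 1.099 (SE 0.15, limma adjusted p = 2.51e-08). The rise was concentrated at 3 h, with differences of 0.19, 0.71 and 2.39. AT1G21830 had 2035 and 2512 with BL against 858 and 966 in mock at 3 h, and 813 and 1105 against 1002 and 1250.0 in mock at 30 min, where it was not higher. Its mean difference was 0.59 (SE 0.13, limma adjusted p = 0.000213). UBC16 fell by 0.38 (SE 0.09, limma adjusted p = 0.0407), a call lost when any of 9 of the 12 arrays was left out (adjusted p up to 0.169). RR16 read 485 and 479 with BL against 971 and 979 in mock at 3 h, though its F over the times did not pass (limma adjusted p = 0.209), with differences of -0.00, 0.17 and -0.94. Same-numbered arrays deviated together here, and with the replicate number as a block 6 members passed, beside 6.34% of all tested.

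AT5G50915 and AT1G21830 were also higher with BL in Col-0, set against GA3. AT5G50915 had 1813 and 1837 with BL against 302 and 465 with GA3 at 3 h, and a mean difference of 1.08 (SE 0.15, limma adjusted p = 4.46e-07). AT1G21830 had 2116 and 2291 with BL against 1214 and 1252 with GA3 at 3 h, and a mean difference of 0.74 (SE 0.13, limma adjusted p = 0.0044). In both genes the BL and GA3 arrays did not overlap at any time. In all, 5 members passed (9.43%, beside 1.94% of all tested), the others being 254111_at (0.70) and 261717_at (0.63), which were higher, and 259466_at (-0.54), which was lower. Of all tested, 1.04% rose and 0.898% fell. Leaving out BL 1 h replicate 1 brought the count to 2, and leaving out BL 30 min replicate 1, BL 3 h replicate 1 or either GA3 1 h array brought it to 3, but the calls of AT5G50915 and AT1G21830 stood whichever of the 12 arrays was left out. The calls of 261717_at and 259466_at were each lost without any 1 of 7 of the 12 arrays (adjusted p up to 0.0938 and 0.346), and that of 254111_at without any 1 of 3 (up to 0.358). On the deposited values without rescaling 1 member passed, AT5G50915, and AT1G21830 had an adjusted p of 0.0576.

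MJ against GA3 moved 8 members (15.1%, beside 4.52% of all tested), 2 up and 6 down. The 6 that fell make 11.3% of the members, beside 1.45% of all tested, and the 2 that rose 3.77%, beside 3.06%. NAI1 had 4208 and 2771 with MJ against 1168 and 1016 with GA3 at 30 min, and 4863 and 4268 against 904 and 1562 with GA3 at 1 h. Its mean difference was 1.74 (SE 0.22, limma adjusted p = 5.46e-07), and the MJ arrays stood well apart from the GA3 arrays. AT1G11670 rose by 0.56 (SE 0.09, limma adjusted p = 1.97e-06).

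The members that passed as lower with MJ than with GA3 were all unnamed, and 4 of them were among the 13 members with their zeatin maximum at 30 min. 252374_at had 426 and 568 with MJ against 967 and 886 with GA3 at 30 min, and 636 and 638 against 908 and 1115 with GA3 at 1 h. It fell by 0.73 (SE 0.16, limma adjusted p = 0.00564), with every MJ array below every GA3 array. Also against GA3, 261717_at was lower by 0.81, 264790_at by 0.61, 259466_at by 0.68, 251665_at by 0.48 and 262704_at by 0.99. From mock, 259466_at differed by -0.24 and -0.36 with MJ at 30 min and 1 h, and by 0.58 and 0.17 with GA3. Part of its gap thus lay in GA3. In the other probe sets that passed as lower, MJ lay further from mock than GA3 at both times. Over the 13 with their maximum at 30 min, the median difference was -0.40, with 10 below 0. The 25 that were widest at 1 h had a median of -0.09, and the 15 that were widest at 3 h 0.00. All tested probe sets had a median of -0.03, and the differences between these classes were not tested. Against mock, the 13 had medians of -0.06 with MJ and 0.21 with GA3 at 30 min, and of -0.45 with MJ and -0.08 with GA3 at 1 h. On the deposited values without rescaling, 2 members passed. The count of 8 was 5 without MJ 1 h replicate 1, where 251665_at did not pass (adjusted p = 0.292), and it also failed without GA3 1 h replicate 2 (0.0561). Without MJ 30 min replicate 1, 252374_at did not pass (adjusted p = 0.0708).

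IAA against GA3 moved 3 members (5.66%, beside 1.03% of all tested), 2 up (0.921% of all tested) and 1 down (0.11%). 261717_at had 2158 and 2111 with IAA against 1071 and 902 with GA3 at 30 min, and 2760.4 and 2868 against 1056 and 1271 with GA3 at 1 h. It rose by 1.16 (SE 0.16, limma adjusted p = 1.99e-05) with no overlap of the arrays, and with MJ the same probe set was lower. AT1G21830 rose by 0.78 (SE 0.16, limma adjusted p = 0.011) and AT2G12420 fell by 0.76 (SE 0.25, limma adjusted p = 0.0208). The gap of AT2G12420 lay at 1 h, where its differences from mock were -0.48 with IAA and 1.12 with GA3. At 30 min they were 0.43 with IAA and 0.36 with GA3. The call of AT1G21830 was lost without GA3 1 h replicate 1 (adjusted p = 0.144) or IAA 1 h replicate 2 (0.0996), which left 1 member called in each case. AT2G12420 lost its call without any 1 of the IAA or GA3 arrays at 1 h (adjusted p 0.106 to 0.349). Over the 53, the median was -0.15 with IAA, beside -0.02 for all tested. ABA against GA3 moved 0 members by limma (2.43% of all tested), with 9 at an unadjusted p under 0.05 (17% of the members, beside 8.83% of all tested). With the replicate number as a block, 4 members were lower with ABA (4.48% of all tested passed) and 5 passed with IAA (1.64%). On the deposited values without rescaling, the count was 1 for IAA and 0 for ACC. ACC moved 1, 261717_at (mean 0.66, SE 0.13, limma adjusted p = 0.0215), which is 1.89% of the members, beside 1.12% of all tested in either direction and 0.579% that rose. That call was lost without ACC 1 h replicate 2 (adjusted p = 0.115), ACC 3 h replicate 1 (0.0681), GA3 1 h replicate 1 (0.0944) or GA3 3 h replicate 2 (0.0778), and 2 members passed without ACC 3 h replicate 2 or GA3 1 h replicate 2.

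GA3 in ga1-5 moved 0 members by limma (0.127% of all tested), with 5 at an unadjusted p under 0.05 (9.43% of the members, beside 3.53% of all tested). The cytokinin genes gave ARR15 0.16 (SE 0.25), RR16 0.03 (SE 0.16), UGT76C2 -0.31 (SE 0.13) and AZG1 0.09 (SE 0.16) as mean log2 differences from ga1-5 mock.

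Between the mock seedlings of the mutants, 25 of 53 members differed (47.2%, beside 35.1% of all tested), 13 higher in ga1-5 (24.5%, beside 18.2%) and 12 lower (22.6%, beside 16.8%). RR16 read 224 and 238 in ga1-5 against 1116 and 1038 in det2-1 at 30 min, 187 and 183 against 1135 and 948 in det2-1 at 1 h, and 209.7 and 192 against 971 and 979 in det2-1 at 3 h. The mean difference was -2.06 (SE 0.16, limma adjusted p = 2.14e-14), and all 6 arrays of ga1-5 lay below all 6 of det2-1. Col-0 mock arrays lay between them, at 399 to 862. ARR15 had no such gap, with a mean difference of -0.13 (SE 0.25, limma adjusted p = 0.732).

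AT5G47980, of the thalianol cluster, went the other way. It had 1720.1 and 1988 in ga1-5 against 385 and 233 in det2-1 at 30 min, 1399 and 2113 against 406 and 269 in det2-1 at 1 h, and 2117 and 1905 against 708 and 352 in det2-1 at 3 h. The mean difference was 2.17 (SE 0.18, limma adjusted p = 2.68e-13), while Col-0 mock arrays read 1262 to 2178, overlapping the 1399 to 2117 of ga1-5 mock. With BL, det2-1 arrays read 161 to 800.2, so they stayed below ga1-5 mock. AT1G11670 was higher in ga1-5 by 0.91 (SE 0.07, limma adjusted p = 4.25e-14), 266290_at by 1.64 and 264470_at by 1.31. Lower in ga1-5 were AT3G46880, with a difference of -0.80 (SE 0.17, limma adjusted p = 0.000269), 266372_at with -0.83, 251665_at with -0.61 and UGT76C2 with -0.37. Of the 13 members with their zeatin maximum at 30 min, 6 were lower and 0 higher in ga1-5, with 9 higher and 5 lower among the 25 that were widest at 1 h and 4 higher and 1 lower among the 15 that were widest at 3 h, and these classes were not tested against each other. Genotype and array set cannot be told apart in any of these values.

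**Figure D5:**
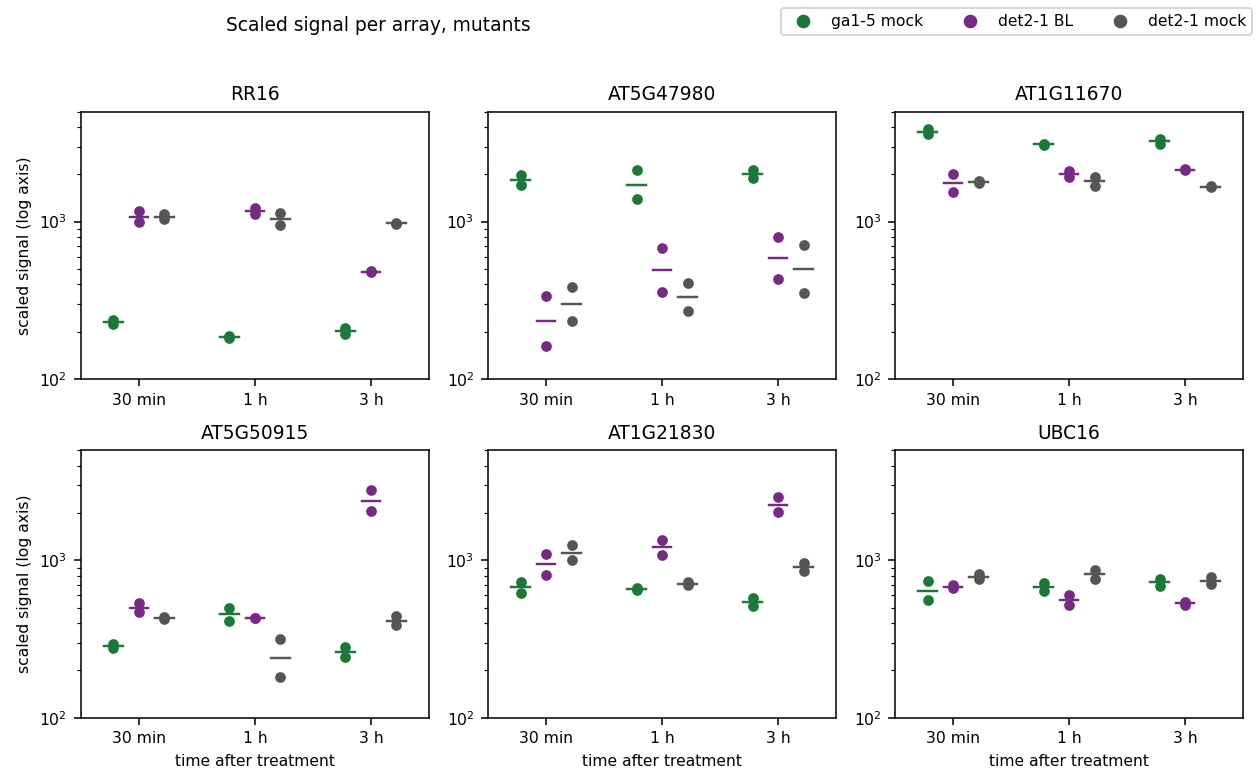
Scaled signal (log axis) of 6 members on each array of ga1-5 mock (green), det2-1 with BL (purple) and det2-1 mock (grey) at 30 min, 1 h and 3 h, with a bar at the geometric mean of the 2 arrays. RR16 is lower and AT5G47980 and AT1G11670 higher in ga1-5 mock than in det2-1 mock at every time, and AT5G50915 and AT1G21830 stand above mock in det2-1 with BL at 3 h.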

How the data were processed

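The deposited table holds linear intensities, which the authors computed by MAS5 according to the submitters' processing notes. Each of the 72 arrays (22810 probe sets, 64 of them controls) was scaled to a trimmed mean of 1147 (2% trimmed at each end), from 871 to 1158 in Col-0 and 1810 to 2963 in the mutants, and converted to log2(signal + 55), where 55 is 10% of the median signal. On Col-0 IAA 30 min replicate 2, 1973 probe sets held impossible values and were treated as missing, by a rule set after the data were seen; 3 members were among them, so their IAA value at 30 min rests on 1 array. Probe sets above the 40th percentile on at least 2 arrays were tested (17262, with all 53 members). Group means were fitted jointly to all 72 arrays with limma 3.58.1 (R 4.3.3) and an intensity trend, leaving 36 residual degrees of freedom, and adjusted p-values are Benjamini-Hochberg at 0.05. The fit was tested on simulated data with errors independent between arrays. That test does not cover same-numbered arrays that deviate together. The number of arrays limits the precision.

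The members, gene lists and comparisons were chosen with earlier results of these data known. Named are the members with 1 gene, the 10 largest mean differences, those with the largest change over time, those nearest each cut-off, and up to 4 calls per direction in each comparison; 262915_at was added to complete a count. The choice left out 2 probe sets, not reported here. Gene names come from the platform annotation, updated through RefSeq. Replicate numbers were taken to pair the arrays only where deviations of same-numbered arrays correlated above 0.1 at all 3 times, which of the tested comparisons held for BL in det2-1 (0.248, 0.145 and 0.261). IAA, ABA and MJ against GA3 hold only 2 times, so they could not meet this rule. They were not counted as paired, although their correlations of 0.234 to 0.359 were all above 0.1. All p-values printed come from fits without the replicate block, for BL in det2-1 too, and the block enters only the counts given with it.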

Additional observations from a re-analysis of the deposited data

How the results depend on the processing

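Counts of members called were recomputed under 10 alternatives of scaling, offset, filter, variance trend, array set and blocking, and without each array. With the replicate number as a block the counts were 4 for ABA, 5 for ACC, 9 for BL and 5 for IAA against GA3, 6 for BL in det2-1 and 1 for GA3 in ga1-5. On the deposited values without rescaling they were 0 for ACC, 1 for BL, 1 for IAA and 2 for MJ against GA3. With only the array sets of a comparison in the fit they were 2 for ABA, 2 for BL and 1 for IAA, with a 60th percentile filter 1 for ABA and 2 for ACC, and with an offset of 50% of the median signal 2 for ACC. The cause was not tested. Where shares of all tested under the block are given above, for ABA and IAA against GA3 and BL in det2-1, they rose too. Counts that stand without such a share are not read as results about the members. Leaving out 1 array gave 0 to 2 for ACC, 2 to 7 for BL, 1 to 4 for IAA, 5 to 9 for MJ and 0 to 0 for ABA against GA3, 2 to 3 for BL in det2-1, 0 to 0 for GA3 in ga1-5 and 18 to 26 between the mutant mocks. A cut-off of 0.5 for the mean zeatin difference would give 102 members and one of 1 would give 24. Without 1 array the number lay between 50 and 83, the highest without zeatin 3 h replicate 2, where 49 of the 53 remained. The fewest of the 53 that remained were 45, without mock 3 h replicate 2. Of 257 recomputed values for 26 named calls, 25 lost their call and 0 reversed, not counting left-out arrays. Among the lost were UBC16 with array medians subtracted (adjusted p = 0.0532) or no filter (0.0529), and 259466_at for BL with no filter (0.0513). A trimmed mean over all probe sets, an alternative added after seeing the data, gave 53 members, 52 of them shared.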
